A study of Mus musculus with 2 samples.

Results

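Transcripts of Igf1, the gene of insulin-like growth factor 1, and of 6 IGF binding proteins (Igfbp2, Igfbp3, Igfbp4, Igfbp5, Igfbp6 and Igfbp7) were followed in interstitial cells of the infarcted mouse ventricle. They are 7 of the 15059 genes in each fibroblast subcluster table and of the 15181 distinct genes in all 22 deposited comparison tables. These genes were chosen by the same deposited values that are given below, because Igfbp5 had opposite signs in different subclusters, so all values are a description and none was tested.

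The study held 2 libraries of viable, sorted cells, 1 per genotype, from adult hearts collected 6 days after ligation of the left anterior descending coronary artery (myocardial infarction, MI). The day is that of the labels, and the study's methods name a later one. Both genotypes carried PostnMCM (MerCreMer, a Cre that tamoxifen switches on, under control of Postn, a gene of activated fibroblasts) together with the R26-eGFP reporter, and both were fed chow with 0.4 g/kg tamoxifen citrate from MI onwards. PostnMCM mice with no floxed Yap1 or Wwtr1 were the control. In the Yapfl/fl;Wwtr1fl/+;PostnMCM mice the 2 alleles of Yap1 and 1 of those of Wwtr1 could be excised from cells that express Postn. These genes encode YAP and TAZ, transcriptional co-activators of the Hippo pathway. Cells of 1 library are not replicates, and no p-value or error can be given for any difference.

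Free IGF1 binds the receptor IGF1R and signals through insulin receptor substrates, phosphoinositide 3-kinase and AKT to growth and survival. The high-affinity binding proteins hold IGFs in the extracellular space, where they can block receptor binding or store the ligand until a protease releases it. Secreted proteases of several families cut them, and IGFBP4 is the classical substrate of pappalysin (Pappa). Fibroblasts and macrophages are known sources of IGF1 in the injured heart.

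Each table gives, for a gene, the percent of cells with a corrected count above 0 in either library and an average log2 fold change. The latter is the authors' deposited value, with the library labelled Yap/Wwtr1-depleted as numerator, so negative values are lower in it than in control cells. The tables of the 4 fibroblast subclusters (0, 3, 4 and 5) set no limit on the genes, whereas the 18 cluster tables hold only genes that differed by at least 0.25 and reached 25% of cells with a count. A gene is called detected in a subcluster when its share reached 25% in one library or both. Of the 28 member values in the subclusters, 24 were detected, 13 of them below 0 and 11 above 0. Cell numbers and counts per cell are not given, but the spacing of the shares over the 15059 genes shows how coarse they are. In subcluster 4 the shares of the library labelled depleted took 11 values in steps of 10 points, the coarsest spacing, against steps of 2.5 points in control cells. Steps were 4.3 to 4.4 points (control) and 4.7 to 4.8 points (labelled depleted) in subcluster 5, 3.3 to 3.4 and 4.3 to 4.4 points in subcluster 3, and 0.6 to 0.7 and 3.1 to 3.2 points in subcluster 0. So wide a spacing means that few cells lie behind a share, fewest in subcluster 4 of the library labelled depleted.

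Fibroblast identity was checked first. Col1a1, Col1a2, Col3a1 and Dcn, which encode abundant matrix proteins of fibroblasts, had a count in 100% of cells in each subcluster of either library. Tcf21, a transcription factor of resident cardiac fibroblasts, was counted in 0% to 8.7% of cells in subclusters 0 and 3, in 35% of control cells and 20% of cells labelled depleted in subcluster 4, and in 43.5% and 81% in subcluster 5. Wt1, a transcription factor of the epicardium, was counted in 92.5% to 97.2% of control cells in subclusters 0, 3 and 4 and in 73.9% in subcluster 5. Subclusters 0, 3 and 4 thus carried an epicardial marker in most cells (96.9% to 100% in the library labelled depleted), and all subclusters are called here by their numbers. Postn, which drives Cre, was counted in 10% to 40% of cells in subclusters 0, 3 and 4, and in 87% of control cells and 100% of cells labelled depleted in subcluster 5. Yap1 was counted in a higher share of cells in the library labelled depleted in 3 of the 4 subclusters, and its deposited log2 fold change lay between 0.04 and 0.31, that of Wwtr1 between -0.30 and 0.15. The second library is therefore called by its label. These libraries count the 3′ ends of transcripts, and a transcript that has lost an exon may still be counted, so the shares do not show whether the genes were excised.

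Igf1 (chromosome 10, 87693642 to 87772904, plus strand, GRCm39), the ligand, was among the common transcripts of all 4 subclusters. Its share was 63.4% of control cells and 81.2% of cells labelled depleted in subcluster 0, 73.3% and 82.6% in subcluster 3, 100% in either library of subcluster 4, and 91.3% and 95.2% in subcluster 5. In subcluster 0 it stood 17.8 points higher in the library labelled depleted, the largest gap in its share. The log2 fold changes were 0.63, -0.10, 0.35 and -0.38 in subclusters 0, 3, 4 and 5. In subclusters 3 and 5 the share and the log2 fold change therefore had opposite signs. The control library ordered the subclusters for Igf1 as 4, 5, 3 and 0, from the highest to the lowest share. For Igfbp3 and Igfbp5 subcluster 0 came first instead.

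Igfbp5 (chromosome 1, 72897091 to 72914043 on the minus strand, GRCm39) encodes a secreted binding protein that also attaches to extracellular matrix. It was counted in 88.3% of control cells and 78.1% of cells labelled depleted in subcluster 0, in 60% and 60.9% in subcluster 3, in 25% and 50% in subcluster 4, and in 43.5% and 14.3% in subcluster 5. Subclusters 4 and 5 were thus opposite. Its share in subcluster 4 was 25 points higher in the library labelled depleted, and in subcluster 5 it was 29.2 points lower. The first of these gaps spans less than 3 of the steps of 10 points in which that library was measured. In the control library, subcluster 5 had a larger share of cells with a count than subcluster 4, and in the library labelled depleted that order was turned round.

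**Figure D1:**
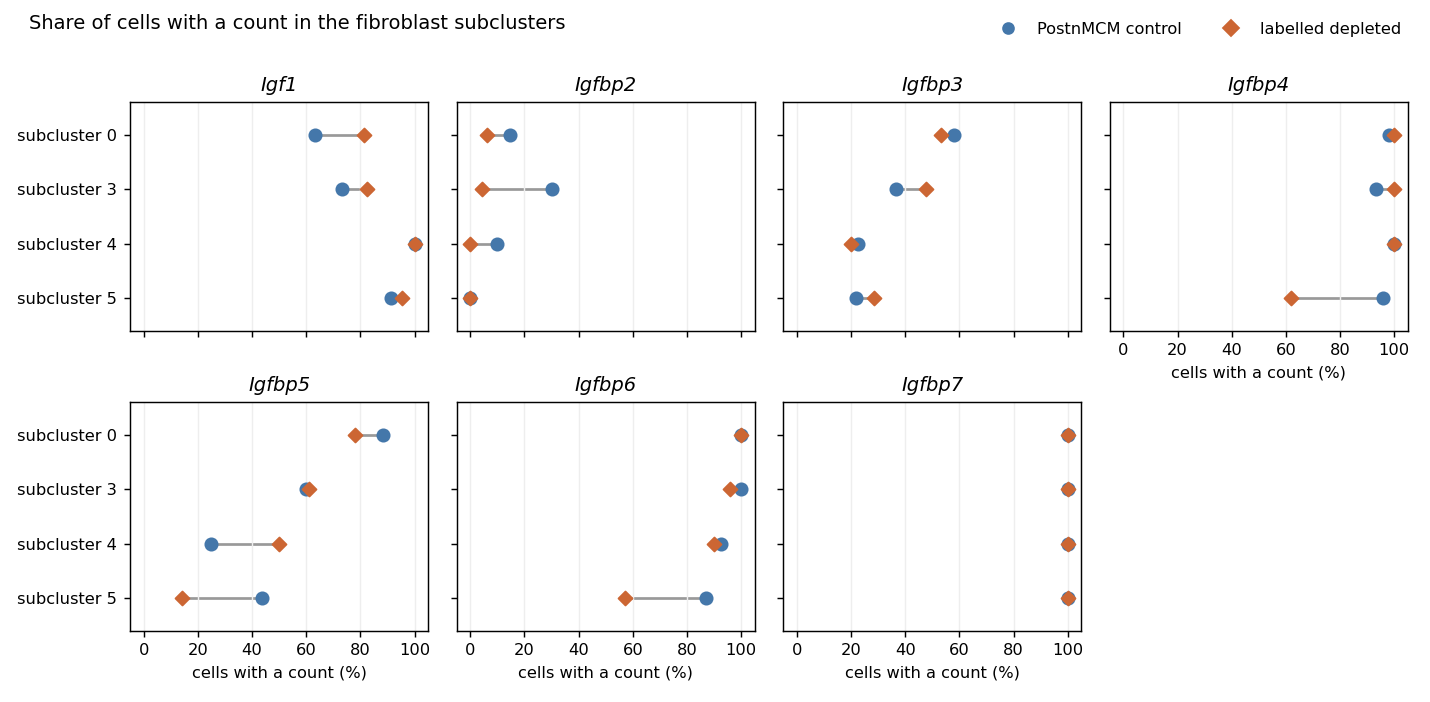
Percent of cells with a count of each member (horizontal axis) in fibroblast subclusters 0, 3, 4 and 5 (vertical axis), with circles for the PostnMCM control library and diamonds for the library labelled depleted. Each point is 1 library. Igfbp5 goes opposite ways in subclusters 4 (25% to 50%) and 5 (43.5% to 14.3%), Igfbp4 and Igfbp6 part in subcluster 5, and Igfbp7 is at 100% throughout.

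The log2 fold changes of Igfbp5 were 0.18, -1.0007, 2.46 and -2.15 in subclusters 0, 3, 4 and 5. Among the 9130 genes detected in subcluster 4 its value was the highest. It was the 14th lowest of 8349 in subcluster 5 and the 21st lowest of 9015 in subcluster 3. From subcluster 4 to subcluster 5 the value moved by 4.61 on the log2 scale, or 24.5-fold, the second largest span among 10531 genes detected in at least 1 subcluster. Igfbp5 was also 1 of 15 genes (0.142% of 10531) that reached a size of 1 with both signs, upward in one subcluster and downward in another. The other 6 members were not among these genes.

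In subclusters 3, 4 and 5 the fold changes of Igfbp5 were larger in size than its shares alone would give. A cell with a count holds at least 1 corrected count, so the shares and the fold change together set the lowest mean that the higher library can have. In subcluster 4 the library labelled depleted had a mean of at least 5.87 corrected counts of Igfbp5 per cell, or at least 11.7 per cell with a count. The control library had at least 4.09 per cell and 9.38 per cell with a count in subcluster 5. For subcluster 3, where both shares were near 60%, the control mean was at least 2.22 per cell and 3.69 per cell with a count. The difference in subcluster 3 thus lay in the amount per cell with a count, since the shares differed by 0.9 points in the opposite direction. With shares of subcluster 4 in steps of 10 points, the mean of Igfbp5 in the library labelled depleted rests on few cells, and how evenly they share it is not given.

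Igfbp5 lies beside Igfbp2 (chromosome 1, 72863606 to 72891634, plus strand), and the genes point towards each other with 5456 bases between their ends. The promoter of Igfbp5 is shown because Igfbp5 is the member that reached a size of 1 with both signs, and those of Igfbp4 and Igfbp6 because these genes were lower with it in subcluster 5. The sequences are RefSeq entries of build GRCm38.p6, from 250 bases before to 50 bases after the start, 5′ to 3′ on the strand of the gene. They lie at chr1:72874816-72875115 (minus strand) for Igfbp5, chr11:99040994-99041293 (plus strand) for Igfbp4 and chr15:102143936-102144235 (plus strand) for Igfbp6. Capitals mark CATTCC or its reverse complement GGAATG, the core letters bound by TEAD factors, the DNA-binding partners of YAP and TAZ.
Igfbp5: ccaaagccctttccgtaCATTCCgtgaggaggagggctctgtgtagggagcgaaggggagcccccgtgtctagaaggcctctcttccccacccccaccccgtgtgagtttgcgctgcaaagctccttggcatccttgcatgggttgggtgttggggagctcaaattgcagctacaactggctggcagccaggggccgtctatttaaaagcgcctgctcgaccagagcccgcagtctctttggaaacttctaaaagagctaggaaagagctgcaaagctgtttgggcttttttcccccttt
Igfbp4: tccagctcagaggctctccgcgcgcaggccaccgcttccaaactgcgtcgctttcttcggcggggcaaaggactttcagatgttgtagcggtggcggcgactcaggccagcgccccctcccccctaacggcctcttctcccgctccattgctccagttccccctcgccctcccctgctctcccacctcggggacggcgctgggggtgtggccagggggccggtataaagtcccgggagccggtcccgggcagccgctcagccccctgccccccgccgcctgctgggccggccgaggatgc
Igfbp6: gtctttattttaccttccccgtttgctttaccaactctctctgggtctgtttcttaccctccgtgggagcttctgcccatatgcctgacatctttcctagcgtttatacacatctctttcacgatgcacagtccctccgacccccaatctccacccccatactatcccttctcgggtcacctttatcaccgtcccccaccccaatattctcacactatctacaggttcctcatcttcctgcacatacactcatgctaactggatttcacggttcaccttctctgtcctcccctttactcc
The letters occur once in the Igfbp5 window, beginning 233 bases before the start, and in neither of the other sequences. All 7 members matched an entry in the promoter table, Igfbp2 with 2 entries. Of these 8 promoters 1 holds the motif (12.5%), against 14.7% of 32851 promoters in the table. A match of 6 letters is a description of the sequence and marks no binding site. The windows also differ in base composition, at 56.3% G and C in Igfbp5, 71.3% in Igfbp4 and 49.7% in Igfbp6, with a median of 52.7% over the table.

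Igfbp6 (chromosome 15, 102052697 to 102057953, plus strand), whose protein prefers IGF2 over IGF1, was below 0 in each of the 4 subclusters. Its transcript was found in 100% of cells of either library in subcluster 0, in 100% of control cells and 95.7% of cells labelled depleted in subcluster 3, in 92.5% and 90% in subcluster 4, and in 87% and 57.1% in subcluster 5. Only in subcluster 5 did its shares lie more than 5 points apart. Log2 fold changes were -0.25, -0.58, -0.13 and -2.98 in subclusters 0, 3, 4 and 5, and that in subcluster 5 was the 4th lowest of 8349 genes. Control cells of subcluster 5 held at least 11.4 corrected counts of Igfbp6 each on average.

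Igfbp4 (chromosome 11, 98932064 to 98945218, plus strand), an inhibitor of IGF action until it is cut, also had a lower share in subcluster 5 of the library labelled depleted. A count was present in 97.9% of control cells and 100% of cells labelled depleted in subcluster 0, in 93.3% and 100% in subcluster 3, in 100% of either library in subcluster 4, and in 95.7% and 61.9% in subcluster 5. Nearly all control cells thus had a count everywhere, and so had the cells labelled depleted, except in subcluster 5. The log2 fold changes were -0.02, 0.47, -0.22 and -2.34, the last of them the 9th lowest in subcluster 5. The control mean in subcluster 5 was at least 7.20 corrected counts per cell. The spans of Igfbp6 and Igfbp4 over the subclusters, 2.85 and 2.81, were 20th and 21st of 10531 genes.

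**Figure D2:**
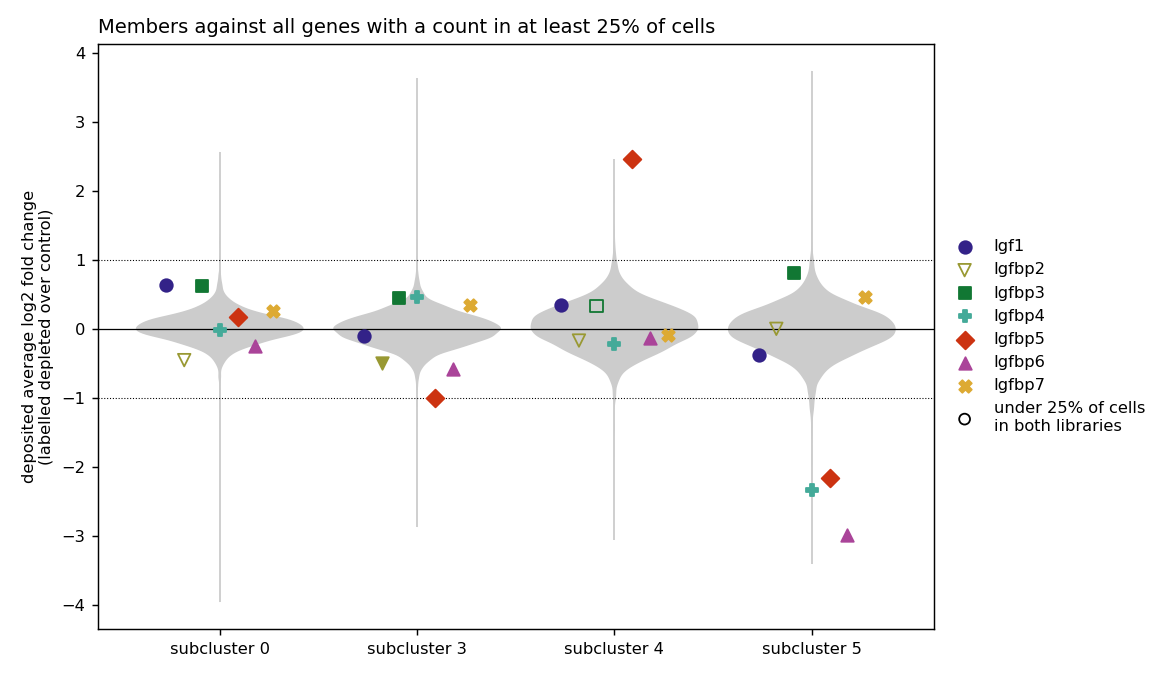
Deposited average log2 fold change (vertical axis, library labelled depleted over control) of the 7 members in each subcluster, over the distribution of all detected genes (grey shapes, with a line from the lowest to the highest gene). Open symbols are members with a count in under 25% of cells of both libraries, and dotted lines mark 1 and -1. Igfbp5 is the highest gene of subcluster 4 at 2.46, and Igfbp4, Igfbp5 and Igfbp6 lie between -2.98 and -2.15 in subcluster 5.

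Members were then counted at a size of at least 1 on the log2 scale. In subcluster 0 none of the 6 detected members reached it in either direction, and 0.306% of 8490 detected genes were higher and 0.259% lower by that much. In subcluster 3, 1 of 7 was lower (Igfbp5, at the limit with -1.0007) and 0 higher, beside 0.233% lower and 0.41% higher among all detected genes. Subcluster 4 had 1 of 5 higher (Igfbp5) and 0 lower, beside 0.756% and 0.416%. In subcluster 5, 3 of 6 were lower (Igfbp4, Igfbp5 and Igfbp6) and 0 higher, beside 1.57% and 0.731%. The members were chosen on these values, so nothing is read from their excess over all genes. The medians over detected members were 0.22, -0.10, -0.08 and -1.27 in subclusters 0, 3, 4 and 5, and the medians of all detected genes were 0.01, -0.01, 0.03 and -0.01.

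Igfbp3 (chromosome 11, 7156086 to 7164179, minus strand), the main carrier of IGFs in plasma, was the member above 0 in all 4 subclusters. Cells with a count made up 57.9% of control cells and 53.1% of cells labelled depleted in subcluster 0, 36.7% and 47.8% in subcluster 3, 22.5% and 20% in subcluster 4, and 21.7% and 28.6% in subcluster 5. Its share was higher in the library labelled depleted in subclusters 3 and 5 and lower in subclusters 0 and 4. The log2 fold change was 0.61, 0.45, 0.33 and 0.81 in subclusters 0, 3, 4 and 5, with that of subcluster 4 resting on under 25% of cells. In subcluster 5 Igfbp3 was therefore higher where Igfbp4, Igfbp5 and Igfbp6 were lower.

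Igfbp7 (chromosome 5, 77493130 to 77555931, minus strand), a related protein of low affinity for IGFs that is laid down in vessel walls and matrix, was counted in 100% of cells in every subcluster of either library. Its log2 fold changes were small, at 0.26, 0.35, -0.08 and 0.46 in subclusters 0, 3, 4 and 5. Igfbp2 was the rarest member. Its share was 14.5% of control cells and 6.2% of cells labelled depleted in subcluster 0, 30% and 4.3% in subcluster 3, 10% and 0% in subcluster 4, and 0% in either library of subcluster 5. It passed the limit for detection only in subcluster 3, through the control library, with a log2 fold change of -0.49. In each of the 3 subclusters that had any, the control library held the larger share.

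Markers of the epicardium were lower in subcluster 5 along with Igfbp4, Igfbp5 and Igfbp6, whereas Igfbp3 and Igfbp7 were above 0 there. Wt1 was counted in 73.9% of control cells and 14.3% of cells labelled depleted there (-1.08), Dmkn in 52.2% and 14.3% (-0.49), and Krt19 in 34.8% and 9.5% (-0.43). These were the 3 of 8 epicardial or mesothelial markers that were detected in subcluster 5, and all 3 were lower. The shares of the 8 markers summed to 204.3 points in the control library and 47.7 in the library labelled depleted, with Krt18 at 0 in both and Msln and Krt8 at 0 in the latter. In subclusters 0, 3 and 4 all 8 markers were detected, and the sums lay between 572.5 and 595 points in the control library and between 510 and 646.9 in the library labelled depleted. Tcf21 went the other way in subcluster 5, from 43.5% to 81% (1.13), while Pdgfra was at 87% and 81%. Gsn, which encodes gelsolin, was counted in 100% of cells of either library with a log2 fold change of -2.35. The part of the epicardial markers in the values of Igfbp4, Igfbp5 and Igfbp6 in subcluster 5 was not tested. In subcluster 4, beside the higher value of Igfbp5, 5 of the 8 markers had log2 fold changes above 0 and 3 below, with 2 higher by at least 1. These were Msln (47.5% and 60%, 1.32) and Krt19 (37.5% and 30%, 1.25), while Upk3b was at 95% and 70% (-0.13).

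**Figure D3:**
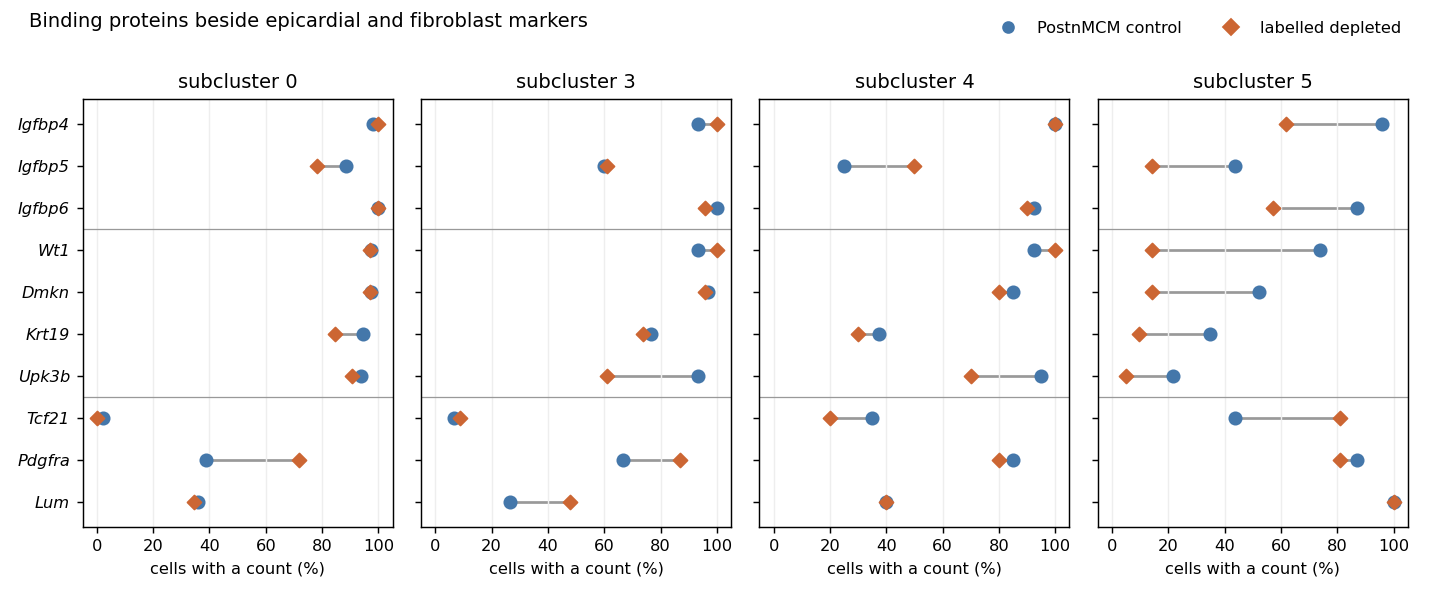
Percent of cells with a count (horizontal axis) for Igfbp4, Igfbp5 and Igfbp6, for the epicardial markers Wt1, Dmkn, Krt19 and Upk3b, and for the fibroblast markers Tcf21, Pdgfra and Lum in each subcluster, with circles for the control library and diamonds for the library labelled depleted. In subcluster 5 these binding proteins and the epicardial markers are all lower in the library labelled depleted (Wt1 73.9% to 14.3%) and Tcf21 is higher (43.5% to 81%).

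Markers of other cells were also present in these tables. Those of neutrophils were lower in the library labelled depleted in subclusters 0, 3 and 4, with medians of -3.90, -1.34 and -2.35 over the detected ones. The median stood at 0.11 in subcluster 5. There S100a8 (78.3% and 71.4%, 0.13) and S100a9 (91.3% and 38.1%, 0.10) had lower shares although their log2 fold changes were above 0. The shares of the 5 neutrophil markers summed to 208.7 to 255.2 points in control cells and 103.1 to 142.8 in cells labelled depleted. Macrophage markers, of interest for Igf1, had lower summed shares in cells labelled depleted (190.5 to 280 points for the 6 genes) than in control cells (278.2 to 353.2), but the medians of their log2 fold changes were -0.34, 1.38, -0.14 and 0.85 in subclusters 0, 3, 4 and 5. All 5 detected ones were above 0 in subcluster 3, and all 3 in subcluster 5. Csf1r, the receptor for colony-stimulating factor 1, was counted in 60% and 50% of cells in subcluster 0 and 50% and 56.5% in subcluster 3. It was at 57.5% and 70% in subcluster 4 and at 13% and 23.8% in subcluster 5. The shares of C1qb, Lyz2 and Cd68 were lower in cells labelled depleted in all 4 subclusters. C1qb was at 82.8% and 37.5% in subcluster 0 and at 80% and 39.1% in subcluster 3. In subclusters 4 and 5 it was at 77.5% and 10% and at 82.6% and 47.6%. C1qa and Adgre1 had higher shares in some subclusters and lower shares in others. The T cell markers Cd3d, Cd3e and Cd3g had larger summed shares in the library labelled depleted, from 24.1 to 31.2 points in subcluster 0, 23.4 to 73.8 in subcluster 3, 22.5 to 70 in subcluster 4 and 13 to 71.5 in subcluster 5. Endothelial markers had sums of 69.4 to 152.5 points for 6 genes in control cells and 42.9 to 137.4 in cells labelled depleted. Pecam1 and Cdh5 were at or below 9.5% in every subcluster. Kdr was at 38.6% and 50% in subcluster 0, 26.7% and 39.1% in subcluster 3, and 40% and 50% in subcluster 4. In subcluster 5 Kdr was at 4.3% and 0% and Fabp4 at 52.2% and 19% (-0.95). Fabp4 was at 56.7% to 78.1% in the other subclusters. For the 6 mural markers the sums were 20 to 69.5 and 34.6 to 57.2 points. In subcluster 5 Abcc9 (21.7% and 0%) and Kcnj8 (17.4% and 0%) were lower and Notch3 (13% and 47.6%) was higher. Whether these markers had a part in the member values was not tested. Cycling markers were the mark of subcluster 3, where the shares of 6 genes summed to 560 points in control cells and 560.9 in cells labelled depleted.

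Receptors for IGFs were measured from a fixed list of 26 other genes of the axis. Igf1r was counted in 55.2% of control cells and 62.5% of cells labelled depleted in subcluster 0, in 36.7% and 43.5% in subcluster 3, in 65% and 70% in subcluster 4, and in 52.2% and 52.4% in subcluster 5. Its log2 fold changes stayed between -0.19 (subcluster 5) and 0.21 (subcluster 3). Igf2r, which clears IGF2 from the cell surface, was counted in 85.7% to 95.7% of cells, with log2 fold changes of 0.19, 0.12, 0.37 and -0.37 in subclusters 0, 3, 4 and 5. Transcripts of the second ligand, Igf2, reached at most 4.8% of cells.

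Secreted proteases held the lowest values of the list. Htra3 (-1.56) and Prss23 (-1.61), which encode secreted serine proteases, were the genes of the list lower by at least 1, both in subcluster 5. Htra3 was counted in 87% and 90.5% of cells there and Prss23 in 82.6% and 66.7%. Prss23 was below 0 in all 4 subclusters, at -0.48, -0.52, -0.58 and -1.61. Htra1, a serine protease of the same family as Htra3, was also below 0 in all of them, with -0.53 in subcluster 3 and -0.54 in subcluster 5. Pappa was counted in 52.4% of control cells and 71.9% of cells labelled depleted in subcluster 0 (0.73) and had values of 0.13, -0.16 and -0.29 in subclusters 3, 4 and 5. Among the metalloproteases, Adam12 had values of 0.92, 0.09, 0.59 and -0.41 in subclusters 0, 3, 4 and 5. In subcluster 4 its share was lower in the library labelled depleted, at 67.5% and 50%. Adamts1 was at -0.83 in subcluster 5. Stc1, a stanniocalcin that inhibits pappalysins, was at -0.56 in subcluster 4.

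At a size of 0.5, 9 of 19 detected genes of the list were past the limit in subcluster 4 and 7 of 18 in subcluster 5, beside 12.5% and 13.9% of all detected genes, and 2 of 16 and 2 of 17 in subclusters 0 and 3, beside 4.10% and 5.34%. Irs1, a docking protein of the receptor, was counted in 12.5% of control cells and 50% of cells labelled depleted in subcluster 4 (0.68), where Irs2 was at 0.58, Foxo1 at 0.70, Foxo3 at 0.54 and Akt2 at 0.50. Grb10, an adaptor that restrains the receptor, had values of -0.57 (subcluster 4) and -0.88 (subcluster 5). In subcluster 5 Akt2 stood at -0.54 and Foxo3 at 0.61. Over the whole list, 8 of 16 detected genes were above 0 in subcluster 0, 11 of 17 in subcluster 3, 14 of 19 in subcluster 4 and 4 of 18 in subcluster 5. The medians were -0.002, 0.04, 0.29 and -0.33. Of all detected genes, 52.9%, 48.8%, 53.1% and 48.4% were above 0 in subclusters 0, 3, 4 and 5. These counts were not tested, and those of subcluster 4 rest on the coarsest shares. None of the list was higher by at least 1 in a subcluster.

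Outside the subclusters, members were listed 9 times in 7 of the 18 cluster tables, 7.14% of 126 possible listings beside 5.65% for all genes. Of the 9 listings 7 were lower in the library labelled depleted (77.8%), beside 52.3% of all listings. Igf1, Igfbp2 and Igfbp3 were listed in none. The fibroblast cluster, cluster 5, listed 3 of the 7 members, beside 4.02% of 15059 genes. In it Igfbp5 was counted in 52.3% of control cells and 46.5% of cells labelled depleted (-0.88), Igfbp6 in 90.3% and 87.7% (-0.84), and Igfbp7 in 99.7% and 98.9% (0.32). The single value of Igfbp5 for the whole cluster does not show the opposite values of subclusters 4 and 5. It also covers cells of subclusters that were not analysed here. The paper reports that some fibroblast subclusters came mainly from control hearts and another mainly from depleted hearts. It also reports IGF binding proteins among the genes enriched in a subcluster that came mainly from control hearts. The part of this make-up in the values of the whole cluster was not tested. Igfbp4, at -2.34 in subcluster 5, was not listed for the cluster as a whole. Epicardial or mesothelial markers were also listed lower in cluster 5, 5 of 8, with Upk3b at 70.8% and 35.8% (-0.93) and Dmkn at 75.5% and 68.4% (-0.74). Of the fibroblast markers, 4 were listed higher, among them Pdgfra (47.7% and 84%, 1.12), and Gsn lower (-0.77). The neutrophil markers S100a8 (32.6% and 5.9%, -1.89) and S100a9 (49.7% and 9.1%, -2.22) were lower too. The part of these markers in the member values was not tested.

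Igfbp6 was listed in 3 macrophage or monocyte clusters. It was counted in 31.5% of control cells and 10.4% of cells labelled depleted in cluster 0 (-0.42), in 31.9% and 10.4% in cluster 11 (-0.34), and in 34.7% and 49.3% in cluster 13 (0.39). Clusters 0 and 11 were lower and cluster 13 was higher. In cluster 13 the epicardial marker Dmkn was higher too, from 11.6% to 33.8% (0.92), and the fibroblast marker Gsn had a log2 fold change of 0.28 with a slightly lower share (65.3% and 62%). Clusters 0 and 11 listed no marker of either list, but the neutrophil marker S100a8 was lower in both. It was at 68.3% and 34.3% (-0.81) and at 59.7% and 27.1% (-2.99). In cluster 13 the neutrophil markers S100a9 (56.8% and 29.6%, -0.64) and Csf3r (57.9% and 47.9%, -0.30) were lower. S100a8 was at 0.35 there, with shares of 51.6% and 50.7%. Markers of the clusters' own cell type moved as well. In cluster 11 the 4 listed macrophage markers were all lower, among them Csf1r (79.2% and 50%, -0.68) and Lyz2 (76.4% and 45.8%, -2.15). Cluster 13 listed Lyz2 (-1.36) and C1qb (-0.39) lower, and cluster 0 listed Lyz2 (-0.72) and Cd68 (-0.27) lower and Adgre1 (0.30) higher. Igfbp4, which naive T cells also transcribe, was listed lower in the T cell clusters 4 (64.8% to 41.7%, -0.44) and 8 (54.4% to 33.3%, -0.65) and in cluster 9 (35.3% to 10.6%, -0.31). Cluster 9 had Cd3g, part of the T cell receptor complex, in 94.1% of control cells and 97.9% of cells labelled depleted, and it listed the fibroblast marker Col3a1 (41.2% to 16.9%, -0.31) and S100a8 (58.8% to 27.5%, -0.32) lower. With Igfbp4, Lyz2 (93.4% to 80%, -0.35) and the endothelial marker Pecam1 (26.1% to 15.7%, -0.28) were lower in cluster 4. S100a9 (-0.83), S100a8 (-0.41) and Lyz2 (-0.36) were lower in cluster 8. Cd3g was listed higher in clusters 4 (0.42), 8 (0.44) and 9 (0.40), and Cd3e in clusters 4 (0.29) and 8 (0.26). The part of these markers in the values of Igfbp4 and Igfbp6 was not tested. Counts from free RNA may be among these shares, and their level was not measured here.

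**Figure D4:**
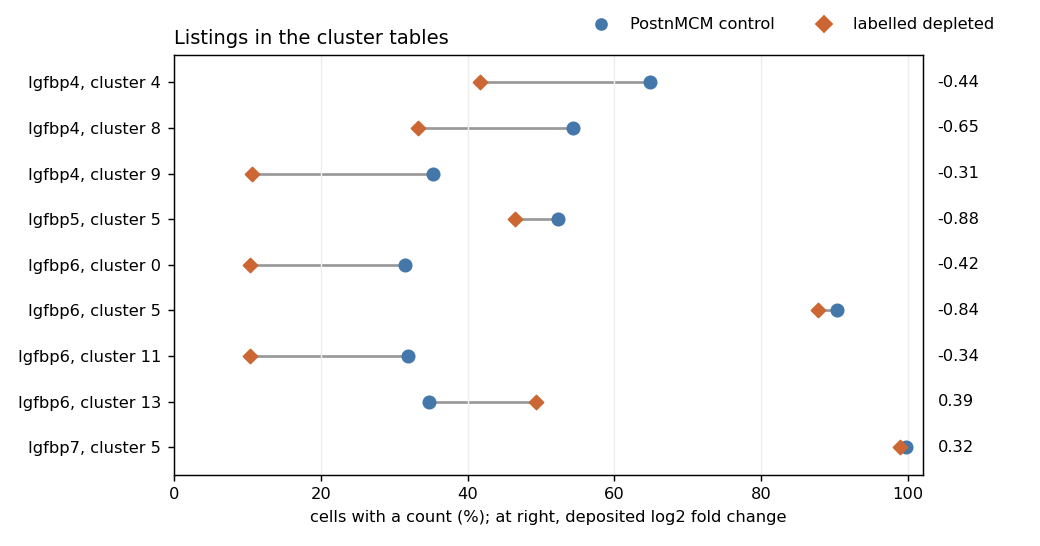
Percent of cells with a count (horizontal axis) for the 9 listings of members in the cluster tables (vertical axis), with circles for the control library, diamonds for the library labelled depleted and the deposited log2 fold change at the right. The 7 lower listings run from -0.31 to -0.88, and Igfbp6 in cluster 13 (0.39) and Igfbp7 in cluster 5 (0.32) are the higher ones.

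From the IGF list, Prss23 (-0.75), Htra3 (-0.32) and Htra1 (-0.28) were listed lower and Adamts1 (0.56) higher in cluster 5. Igf1r was listed in 2 clusters with opposite signs, higher in cluster 9 (23.5% to 36%, 0.36) and lower in cluster 11 (28.5% to 10.4%, -0.42). Igf2r was listed once, in cluster 8 (20.5% to 29.2%, 0.40).

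Genes were ranked by how near their 4 subcluster values lay to those of a member, as a Euclidean distance in log2 units over 10531 genes. Nearest to Igfbp5 was Akap12, a scaffold of protein kinase A, at a distance of 1.48 and with values of 0.56, -0.85, 1.22 and -1.47 in subclusters 0, 3, 4 and 5. LOC118567721 (1.89), Efemp1 (1.90), Nova1 (1.96) and Col5a3 (2.06) followed. By the log2 ratio of shares the nearest gene was another, Ppp1r8, at 0.24. Nearest to Igfbp4 were Fst (0.51), Slit3 (0.61) and Pi16 (0.62), which encode follistatin, an axon guidance ligand and a peptidase inhibitor of adventitial fibroblasts. Sparcl1 (0.73), Wnt4 (0.86) and Lpl (0.88) were nearest to Igfbp6, and Sparcl1 was at -3.08 in subcluster 5 and between -0.08 and 0.26 elsewhere. Igf1 had Tshz3 (0.21), Aff1 (0.23) and Thsd4 (0.27) nearest. For Igfbp3 these were Olfml3 (0.17), Dynlt1b (0.23) and Synpo (0.26), for Igfbp7 Nmi (0.096), 1810009A15Rik (0.13) and Phactr2 (0.15), and for Igfbp2 Gpr62 (0.11), Pde6d (0.13) and Rpl37rt (0.16).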

How the data were processed

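Interstitial cells were captured by droplet (10x Chromium, 3′ chemistry), and the submitters' processing notes name Cell Ranger 6.1.1, Seurat and build GRCm39. The authors combined both libraries without depth normalization, normalized counts with SCTransform and compared libraries within clusters. The deposited fraction of cells with a count is printed as a percent. The deposited average log2 fold change was computed by the authors and is used because it is the measure that defines the members. Over 7979 values at 0 in one library, 0 contradicted means of corrected counts with a pseudocount of 1. The pseudocount pulls rare genes towards 0. Deposited p-values rest on cells and were not used. Each subcluster table was read whole, and no test was made.

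Members and lists were chosen with earlier results of these data known. Named genes were the 7 members, Igf1r, Igf2 and Igf2r, listed genes detected and at least 0.5 in size in a subcluster, and the nearest 5 genes to Igfbp5 and 3 to other members. Further genes (markers, targets) are named as checks. Alternatives were the log2 ratio of shares, centring on the median, sizes of 0.5 and 1.5, and no detection limit. Gene positions are from GENCODE. Doublets may remain. Cluster 16 and subclusters 1 and 2 were not analysed here. Python 3.11.15 and pandas 2.3.3 were used.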

Additional observations from a re-analysis of the deposited data

Results flagged for a closer look

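Igfbp5 was higher in subcluster 4 and lower in subcluster 5 of the library labelled depleted, by both the share of cells and the deposited log2 fold change, and these values lay 4.61 apart on the log2 scale. The difference between the subclusters was not tested, since each rests on 1 library per genotype.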

How the results depend on the processing

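No paired analysis was possible because there was a single library for each genotype, and for the same reason no library could be left out. The number of member values lower by at least 1 was 4. It was 2 with the log2 ratio of shares and 1 without subcluster 5, an alternative chosen after seeing the data. It ran from 3 to 5 under centring, sizes of 0.5 and 1.5, and no detection limit. The 2 by the ratio of shares were Igfbp5 in subcluster 5 (-1.605) and Igfbp2 in subcluster 3 (-2.80). By that ratio Igfbp4 (-0.63) and Igfbp6 (-0.61) in subcluster 5 did not reach a size of 1. The 1 higher value became 4 at a size of 0.5. With the ratio of shares, which ignores the amount per cell, Igfbp5 turned from -1.0007 to 0.0215 in subcluster 3. In subcluster 0 it turned from 0.18 to -0.18. By that ratio the span of Igfbp5 was 2.605 in place of 4.61, and 0 of its 5 nearest genes were shared. Over the 24 detected values the share ratio had the opposite sign in 6 and was 0 in 7. Centring changed 0 signs. Shares in subcluster 4 of the library labelled depleted came in steps of 10 points, so the value of Igfbp5 there rests on few cells.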
